A study of Homo sapiens with 6 samples.

Results

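The 41 genes described here are interferon-induced genes and sensors of foreign RNA, chosen by name, and 38 of them were listed among the 12154 protein-coding genes of the deposited table. RSAD2, IFI27 and IFI44L were not listed. The series holds RNA-seq of 3 AS-tDR-007333 and 3 NC (negative control) libraries, where AS-tDR-007333 is a small RNA cut from a transfer RNA. The methods name PC9 lung adenocarcinoma cells harvested 48 h after transfection with the fragment or with NC. The sample labels instead name A549, another lung adenocarcinoma line, with a tRF plasmid or an empty vector given with a Lipofectamine reagent, and also mark NC as untreated. Separate cultures are not stated for the replicates, so p-values and confidence intervals reflect the spread among 6 libraries, which may be technical. By the methods both groups were transfected. In that case no untransfected cells were analysed here, and a response that both groups share could not be measured. If NC was instead untreated, the fragment and the transfection itself could not be told apart.

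Cells sense foreign RNA with proteins such as RIG-I and MDA5 in the cytosol and TLR3 in endosomes. These signal through adaptors such as MAVS to the factor IRF3, which switches on interferon beta and interferon lambda genes. Secreted interferon then acts through its receptors on factors such as STAT2 and IRF9, which bind a short element in the promoters of many interferon-stimulated genes. Short RNAs and plasmid DNA delivered with lipid reagents can start this response, so its genes are a common check on experiments of this kind.

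The fragment and its control are shown because they are the molecules that the study lists as synthesized for transfection, and the sensors read length, pairing and sequence. Capitals mark the bases paired in the lowest-energy fold that RNAfold predicted.
Fragment: gCAUUGGugguUCAGUGguagaauucuu
Control RNA: gAGAAUuuugauggccGUUCUguaugug
Both RNAs had 28 nucleotides, with 11 U and 9 G each and the same GC share of 42.9%. The predicted fold of the fragment had 6 base pairs at -4.5 kcal/mol, and that of the control had 5 base pairs at -1.1 kcal/mol. Whether this control is the NC of the RNA-seq libraries is not stated outright.

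The element bound by the interferon-activated factors was searched as GAAA, any 2 bases and GAAA again, on both strands of RefSeq promoters (assembly GRCh38.p14), which span 250 bases before to 50 bases after each start site. Promoters were found for 31 of the 38 listed genes, and 20 of these (64.5%) held the letters, against 3.65% of the 27305 promoters in the RefSeq table. No promoter entry was found for DHX58, IRF3, IRF7, IFIT2, OAS2, OASL and IFITM2. The windows below belong to the 6 most abundant listed genes with a match wholly before the start site. They are written along the gene's own strand, with the match in capitals and their place in GRCh37.
ISG15, chr1:948757-948786, plus strand: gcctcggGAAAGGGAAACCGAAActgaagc
IFITM3, chr11:320893-320922, minus strand: caaatgccagGAAAAGGAAActgttgagaa
DDX60, chr4:169239972-169240001, minus strand: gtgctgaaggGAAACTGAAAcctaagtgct
IFIT3, chr10:91087588-91087617, plus strand: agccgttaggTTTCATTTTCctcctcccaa
IFI44, chr1:79115444-79115473, plus strand: gggcacactgagTTTCAGTTTCctttctct
IFIT1, chr10:91152260-91152289, plus strand: ttagTTTCACTTTCcccTTTCGGTTTCcct
The ISG15 and IFIT1 windows held 2 copies each, which overlap in ISG15. In IFIT3, IFI44 and IFIT1 the match lay on the strand opposite to the gene and reads as TTTC, any 2 bases and TTTC. A match is a description of the letters and not a measured binding site.

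Interferon-stimulated genes were plainly transcribed in all 6 libraries, and AS-tDR-007333 did not measurably raise them. Values are FPKM, fragments scaled to gene length and to sequencing depth, so they can be roughly compared between genes and between libraries. Genes that overlap or are alike in sequence may share reads, which limits the comparison between genes. Of the 38 listed genes, 37 had a mean of at least 1 FPKM and were tested with limma on log2(FPKM + 1) among 11042 genes. At a Benjamini-Hochberg adjusted p under 0.05, limma called 0 of the 37 genes higher and 0 lower, against backgrounds of 0.0362% of all genes tested called higher, 0.0272% lower and 0.0634% either way. At an unadjusted p under 0.05, 0 were higher and 1 was lower, IFI35, and this share of 2.70% stands beside backgrounds of 1.63% higher, 1.98% lower and 3.61% either way. A per-gene model with a library term, in the style of Ballgown, also called 0, but it called 0 of all 11042 genes. Its 0 among the 37 genes therefore does not set them apart from the others. The median log2 fold change of the 37 genes was -3.0e-04, beside -0.01 over all genes tested, and 32 of the 37 (86.5%) lay within 0.1 of 0, against 71.4% of all genes tested. The 38 listed genes summed to 669, 661 and 635 FPKM in AS-tDR-007333 libraries, against 630, 633 and 669 FPKM in NC libraries. As a share of all FPKM listed for the library, this was 0.3299%, 0.3305% and 0.319% in AS-tDR-007333 libraries. In NC libraries it was 0.3167%, 0.3209% and 0.3319%. RNA came from whole cultures, so more responding cells and more RNA per responding cell cannot be told apart in these values.

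**Figure D1:**
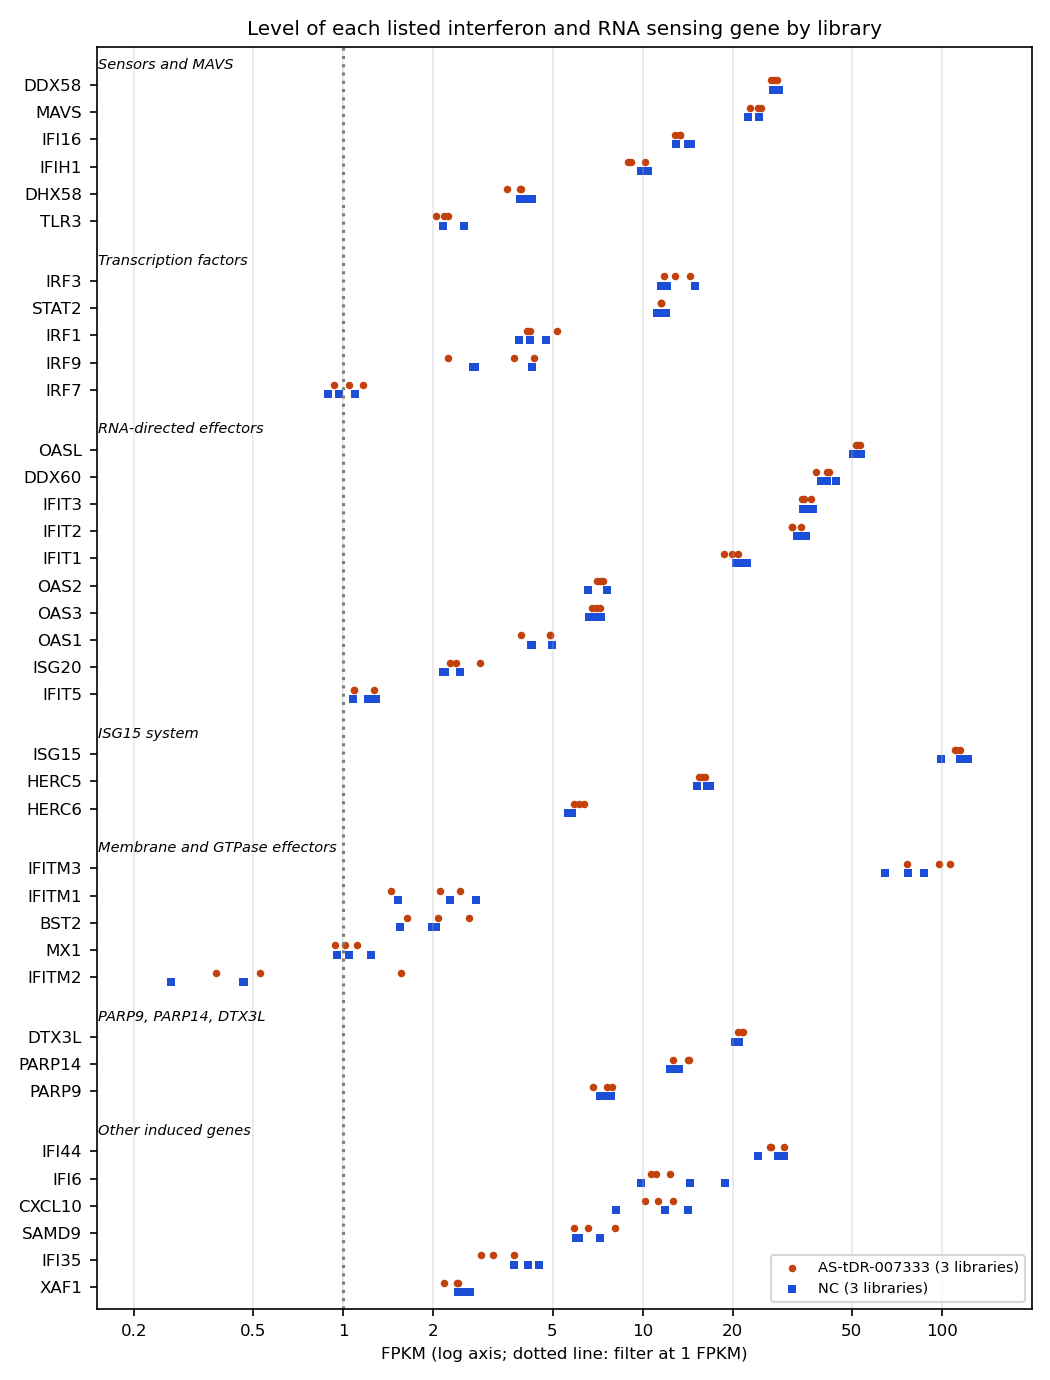
FPKM (log axis) of each of the 38 listed genes in each library, with AS-tDR-007333 libraries as circles above NC libraries as squares, grouped by role and ordered by mean. The levels ran from under 1 FPKM for IFITM2 to over 100 FPKM for ISG15, and for most genes the circles and squares of both groups lay on top of each other.

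The size of rise that the values allow was read from the 95% confidence interval of each log2 fold change. The intervals cover the spread among these libraries, and may not cover the spread between separate cultures. For 36 of the 37 genes (97.3%) the upper bound lay under a fold of 1.5 on the log2(FPKM + 1) scale, against 93.4% of all genes tested, and for 37 of 37 it lay under a fold of 2, against 97.8%. IFITM3 was the exception, with an upper bound of 0.66. Adding 1 to each value shrinks the fold of genes with low FPKM, so the bounds were also turned back into FPKM. They then lay under 1.5-fold for 34 of the 37 genes, against 90.5% of all genes tested, with IFITM3, BST2 and IRF9 above it, and under 2-fold for 37 of 37, against 96.6%. The median standard error was 0.07 for these genes and 0.08 for all genes tested.

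**Figure D2:**
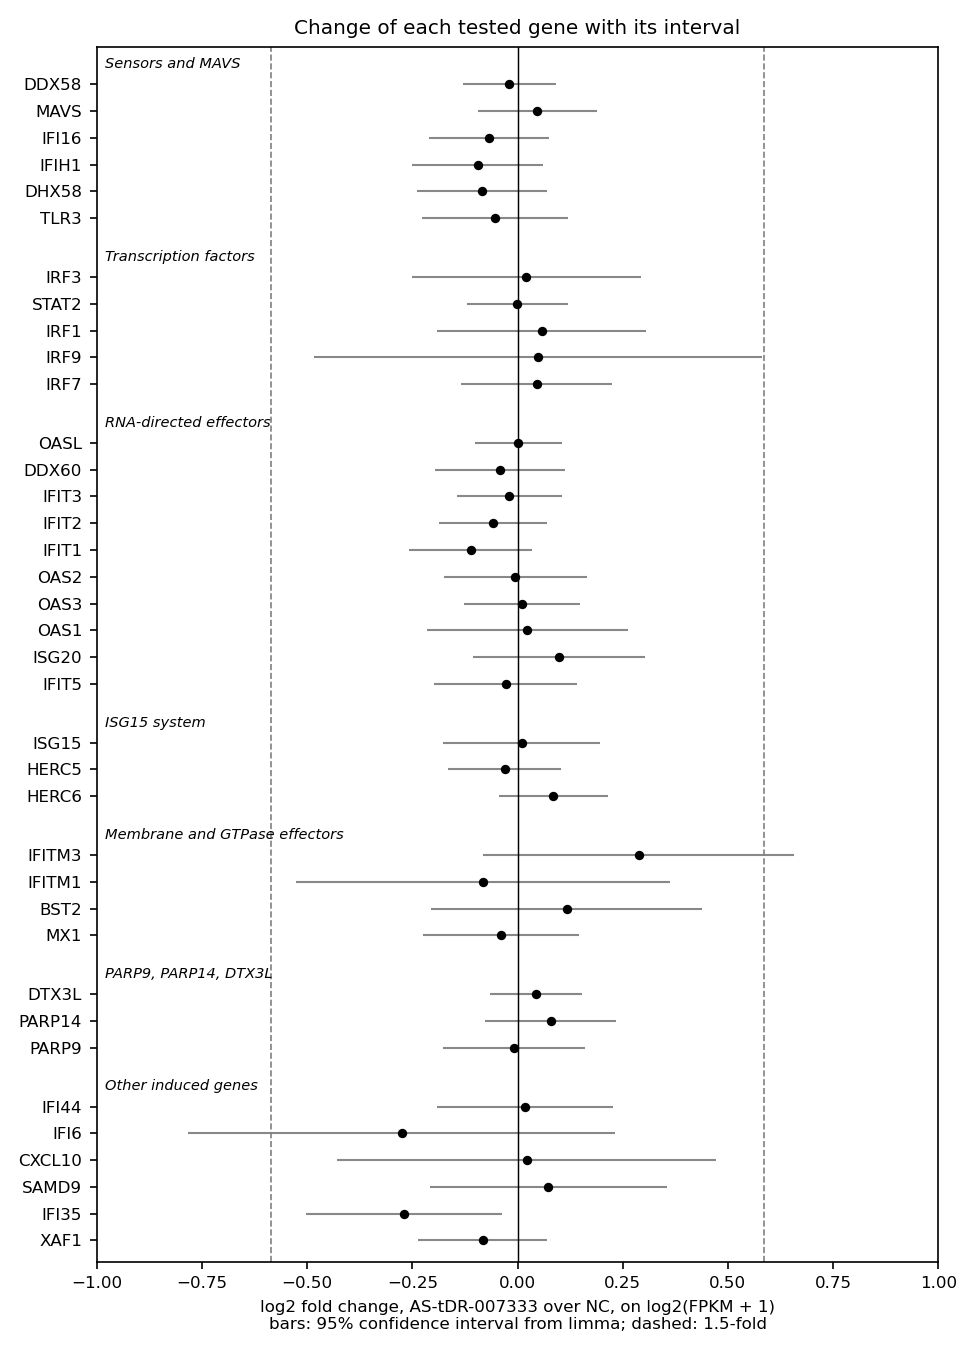
Log2 fold change of the 37 tested genes, AS-tDR-007333 over NC on log2(FPKM + 1), with 95% confidence intervals from limma, grouped by role. Dashed lines mark a fold of 1.5 in either direction. IFI35 was the gene whose interval did not reach 0, and the interval of IFITM3 passed the upper dashed line.

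Among the sensors, DDX58 (ENSG00000107201, GRCh37 chr9:32455703-32526322), which encodes RIG-I, was the most abundant. It was listed at 26.8, 27.5 and 28.2 FPKM in AS-tDR-007333 libraries, against 27.2, 28.5 and 27.9 FPKM in NC libraries. The groups overlapped, and the difference on the log2 scale was -0.02 ± 0.05 (standard error), with a 95% interval of -0.13 to 0.09. IFIH1, which encodes MDA5, the sensor of long double-stranded RNA, was listed at 8.93, 9.15 and 10.2 FPKM in AS-tDR-007333 libraries, against 10.1, 9.84 and 10.4 FPKM in NC libraries. DHX58, which encodes LGP2, a regulator of both, was listed at 3.53, 3.91 and 3.92 FPKM in AS-tDR-007333 libraries, against 3.91, 4.02 and 4.28 FPKM in NC libraries. Both genes had their lowest libraries among the AS-tDR-007333 libraries, with log2 fold changes of -0.10 and -0.08 and intervals that held 0 (limma unadjusted p = 0.19 and 0.237).
TLR3, the endosomal receptor of double-stranded RNA, was listed at 2.17, 2.04 and 2.24 FPKM in AS-tDR-007333 libraries, against 2.15, 2.53 and 2.15 FPKM in NC libraries. IFI16, a nuclear and cytosolic DNA sensor, was listed at 13.4, 12.9 and 13.3 FPKM in AS-tDR-007333 libraries, against 12.9, 14.2 and 14.5 FPKM in NC libraries. MAVS, the mitochondrial adaptor of RIG-I and MDA5, was listed at 22.8, 24.8 and 24.3 FPKM in AS-tDR-007333 libraries, against 24.5, 22.4 and 22.5 FPKM in NC libraries. All 3 overlapped between the groups. Of the 6 genes, MAVS alone had a positive log2 fold change, and the median was -0.06 with no gene past the unadjusted threshold.

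The transcription factors of the response were present at means of 1.02 (IRF7) to 12.9 FPKM (IRF3). None differed between the groups beyond the spread. IRF3, the factor that the sensors activate, was listed at 11.8, 12.8 and 14.4 FPKM in AS-tDR-007333 libraries, against 12.1, 11.5 and 14.9 FPKM in NC libraries. STAT2, which acts in a complex with IRF9, was listed at 11.6, 11.5 and 11.5 FPKM in AS-tDR-007333 libraries, against 11.5, 11.1 and 11.9 FPKM in NC libraries. STAT2 had the smallest difference of the 37 genes, a log2 fold change of -3.0e-04 with an interval of -0.12 to 0.12.
IRF1, an early interferon-induced factor, was listed at 4.21, 5.18 and 4.09 FPKM in AS-tDR-007333 libraries, against 4.20, 3.85 and 4.77 FPKM in NC libraries. IRF7, the factor that amplifies interferon production, was listed at 1.05, 1.16 and 0.934 FPKM in AS-tDR-007333 libraries, against 1.09, 0.892 and 0.965 FPKM in NC libraries. Both overlapped, with log2 fold changes of 0.06 and 0.05. IRF1 shares its locus with C5orf56 and AC116366.3 on the opposite strand, and AC116366.3 was listed at 0.246, 10.1 and 0.503 FPKM in AS-tDR-007333 libraries, against 0.291, 12.8 and 0.105 FPKM in NC libraries. The part of this gene in the values of IRF1 was not tested. IRF9, the DNA-binding partner of STAT2, was listed at 3.71, 4.34 and 2.24 FPKM in AS-tDR-007333 libraries, against 4.27, 2.76 and 2.71 FPKM in NC libraries. AS-tDR-007333 replicates 1 and 2 and NC replicate 1 were high and the other libraries low, so both groups were split. AL136295.5, another listed gene on the same strand, covers all of IRF9 and may share reads with it. It was listed at 1.94, 1.59 and 2.27 FPKM in AS-tDR-007333 libraries, against 1.84, 2.58 and 1.18 FPKM in NC libraries, and its part in the spread of IRF9 was not tested.

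Effectors that act on RNA held some of the highest levels. OASL, which enhances RIG-I signaling, was listed at 52.0, 51.7 and 53.1 FPKM in AS-tDR-007333 libraries, against 50.6, 52.5 and 53.6 FPKM in NC libraries. Its log2 fold change was 0.0015 with an interval of -0.10 to 0.10, so a rise of more than 1.08-fold in FPKM lay outside the interval. DDX60, a helicase, was listed at 41.5, 38.1 and 42.1 FPKM in AS-tDR-007333 libraries, against 39.5, 44.3 and 41.4 FPKM in NC libraries. These groups overlapped as well.
Some IFIT proteins, such as IFIT1, bind foreign RNA and block its translation. IFIT1, IFIT2 and IFIT3 are classical early targets of IRF3. IFIT3 was listed at 34.7, 36.5 and 34.1 FPKM in AS-tDR-007333 libraries, against 34.3, 37.1 and 35.4 FPKM in NC libraries. IFIT2 was listed at 33.8, 31.6 and 31.5 FPKM in AS-tDR-007333 libraries, against 33.0, 32.7 and 35.3 FPKM in NC libraries. IFIT1 was listed at 20.8, 19.96 and 18.7 FPKM in AS-tDR-007333 libraries, against 20.5, 21.6 and 22.3 FPKM in NC libraries. The highest library of each of these 3 genes was an NC library. IFIT1 had the most negative log2 fold change of the effectors that act on RNA, -0.11 (standard error 0.06, limma unadjusted p = 0.114), with an upper bound of 0.04. IFIT5, a relative of these genes, stood far below them at a mean of 1.17 FPKM. IFIT1, IFIT2 and IFIT3 lie within the listed locus of LIPA on the opposite strand, whose log2 fold change was -0.05. The libraries were made with a stranded kit, but the counting is not stated to use strand, so whether reads of the overlapping genes were separated is not known.
The oligoadenylate synthetases make the messenger that activates RNase L, and their levels hardly differed between the groups. OAS1 averaged 4.58 ± 0.573 FPKM in AS-tDR-007333 libraries and 4.49 ± 0.422 FPKM in NC libraries (SD, n = 3 each). OAS2 averaged 7.21 ± 0.19 FPKM in AS-tDR-007333 libraries and 7.25 ± 0.606 FPKM in NC libraries (SD, n = 3 each). OAS3 averaged 6.99 ± 0.206 FPKM in AS-tDR-007333 libraries and 6.93 ± 0.309 FPKM in NC libraries (SD, n = 3 each). Log2 fold changes of the 3 genes lay between -0.01 and 0.02. ISG20, an RNA exonuclease, averaged 2.51 ± 0.317 FPKM in AS-tDR-007333 libraries and 2.27 ± 0.166 FPKM in NC libraries (SD, n = 3 each), the largest positive log2 fold change of these 10 effectors at 0.10, with overlapping groups. The median of the 10 was -0.01.

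ISG15 (ENSG00000187608, GRCh37 chr1:936518-949921), a ubiquitin-like modifier, was the most abundant of all the genes. It was listed at 115, 112 and 110.9 FPKM in AS-tDR-007333 libraries, against 122, 99.4 and 115 FPKM in NC libraries, and the NC libraries enclosed the others on both sides. HERC5, the ligase that attaches ISG15 to proteins in human cells, averaged 15.8 ± 0.374 FPKM in AS-tDR-007333 libraries and 16.2 ± 0.813 FPKM in NC libraries (SD, n = 3 each). HERC6 (ENSG00000138642, GRCh37 chr4:89299891-89364263), its relative, was listed at 6.15, 6.36 and 5.88 FPKM in AS-tDR-007333 libraries, against 5.73, 5.65 and 5.79 FPKM in NC libraries. All 3 AS-tDR-007333 libraries lay above all NC libraries, yet by little, with a log2 fold change of 0.08 (standard error 0.05, limma unadjusted p = 0.164, adjusted p = 0.9996). HERC6 and IFI35 were the 2 of the 37 genes (5.41%) whose groups did not overlap, with backgrounds of 3.58% higher, 5.18% lower and 8.76% either way.

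**Figure D3:**
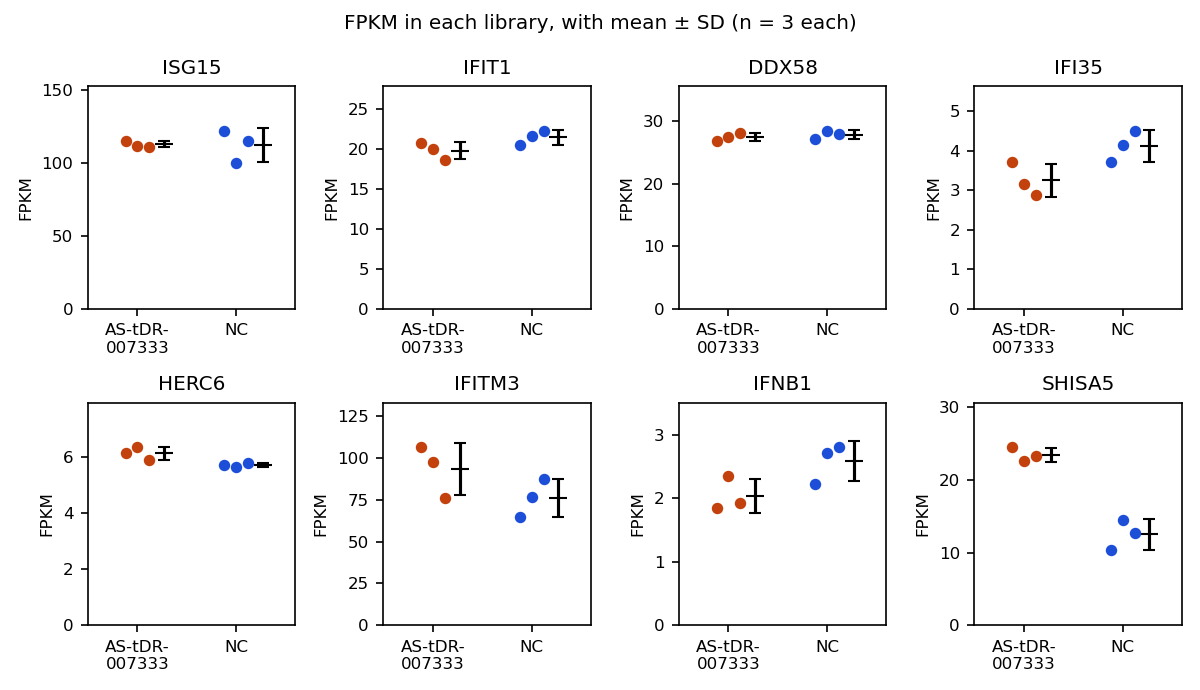
FPKM in each library, from 0, for 6 of the genes and for IFNB1 and SHISA5 from the wider pathway, with AS-tDR-007333 left of NC and the mean ± SD (n = 3 each) as bars. ISG15, IFIT1 and DDX58 overlap, the small gaps of HERC6 and IFI35 run in opposite directions, and SHISA5 shows a wide gap.

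IFITM3 (ENSG00000142089, GRCh37 chr11:319669-327537), a membrane protein that blocks the entry of viruses, varied most in absolute level. It was listed at 107, 97.8 and 76.4 FPKM in AS-tDR-007333 libraries, against 64.7, 77.0 and 87.3 FPKM in NC libraries. The highest libraries were AS-tDR-007333 replicates 1 and 2, but AS-tDR-007333 replicate 3 lay below NC replicates 2 and 3. On the log2 scale the difference was 0.29 ± 0.15 (standard error), with a 95% interval of -0.08 to 0.66 (limma unadjusted p = 0.107, adjusted p = 0.9996), the largest positive value of the 37. With a Ballgown-style model, which adds a library term, it was 0.02.
IFITM1 and IFITM2 encode close relatives of IFITM3. IFITM1 was listed at 1.45, 2.45 and 2.10 FPKM in AS-tDR-007333 libraries, against 2.77, 1.52 and 2.26 FPKM in NC libraries. IFITM2 was below the filter, at 0.376, 1.56 and 0.529 FPKM in AS-tDR-007333 libraries, against 0.267, 0.464 and 0.466 FPKM in NC libraries. AS-tDR-007333 replicate 2 stood apart for IFITM2. An exact permutation test over the libraries gave a two-sided p of 0.4, where 0.1 is the smallest that 3 against 3 allow. IFITM2 averaged 0.821 FPKM in AS-tDR-007333 libraries and 0.399 FPKM in NC libraries. It reached the 0.5 FPKM of the listed genes in AS-tDR-007333 libraries alone. The gene was thus listed only through the group where it was high, so this test cannot decide whether it differed. The listed loci of IFITM1 and IFITM2 overlap by 1767 bases on the same strand, and IFITM1, IFITM2 and IFITM3 are similar in sequence, so reads may be split among them.
BST2, which encodes the virus-tethering protein tetherin, averaged 2.11 ± 0.495 FPKM in AS-tDR-007333 libraries and 1.85 ± 0.27 FPKM in NC libraries (SD, n = 3 each). MX1, an antiviral GTPase, averaged 1.02 ± 0.0861 FPKM in AS-tDR-007333 libraries and 1.08 ± 0.144 FPKM in NC libraries (SD, n = 3 each). Both groups overlapped for either gene. MX1 thus stood far below ISG15, although both are standard interferon-stimulated genes.

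PARP9, DTX3L and PARP14 lie near each other on chromosome 3, and the PARP9 and DTX3L proteins form a complex that modifies histones. DTX3L averaged 21.3 ± 0.415 FPKM in AS-tDR-007333 libraries and 20.7 ± 0.334 FPKM in NC libraries (SD, n = 3 each). PARP14 averaged 13.7 ± 0.924 FPKM in AS-tDR-007333 libraries and 12.9 ± 0.436 FPKM in NC libraries (SD, n = 3 each). PARP9 averaged 7.45 ± 0.565 FPKM in AS-tDR-007333 libraries and 7.49 ± 0.34 FPKM in NC libraries (SD, n = 3 each). The 3 genes overlapped between the groups, with log2 fold changes between -0.01 and 0.08. PARP9 and DTX3L overlap by 340 bases at their starts, on opposite strands.

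IFI35 (ENSG00000068079, GRCh37 chr17:41158742-41166473), which encodes an interferon-induced partner of NMI, was the gene nearest to a change. It was listed at 3.71, 3.16 and 2.89 FPKM in AS-tDR-007333 libraries, against 3.72, 4.15 and 4.51 FPKM in NC libraries. The gap between the groups was narrow, and lay between AS-tDR-007333 replicate 1 and NC replicate 1. On the log2 scale the difference was -0.27 ± 0.10 (standard error), with a 95% interval of -0.50 to -0.04 (limma unadjusted p = 0.0291, adjusted p = 0.9996), so it was lower with the fragment and did not pass the adjusted threshold.
IFI6, an interferon-induced membrane protein, was listed at 12.3, 11.1 and 10.6 FPKM in AS-tDR-007333 libraries, against 14.4, 9.85 and 18.9 FPKM in NC libraries. NC libraries were both the highest and the lowest, and the SD was 0.876 FPKM in AS-tDR-007333 libraries and 4.51 FPKM in NC libraries. Its log2 fold change of -0.28 was -0.51 without NC replicate 2 and -0.07 without NC replicate 3. CXCL10, a chemokine that attracts T cells, was listed at 11.3, 12.6 and 10.2 FPKM in AS-tDR-007333 libraries, against 8.15, 14.2 and 11.8 FPKM in NC libraries. Here, too, the NC libraries enclosed the others. The log2 fold change of CXCL10 was 0.02, and it turned to -0.30 in the Ballgown-style model.
IFI44 was listed at 26.6, 26.9 and 29.6 FPKM in AS-tDR-007333 libraries, against 24.2, 29.7 and 28.3 FPKM in NC libraries. SAMD9, an antiviral factor, averaged 6.86 ± 1.11 FPKM in AS-tDR-007333 libraries and 6.44 ± 0.649 FPKM in NC libraries (SD, n = 3 each). XAF1, which promotes apoptosis, averaged 2.33 ± 0.136 FPKM in AS-tDR-007333 libraries and 2.52 ± 0.121 FPKM in NC libraries (SD, n = 3 each). The groups of these 3 genes overlapped, with log2 fold changes of 0.02, 0.07 and -0.08.

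The genes differed more in level than between libraries. ISG15 averaged 112 FPKM over the 6 libraries and IRF7 averaged 1.02 FPKM, while 18 of the 37 tested genes varied by less than 1.2-fold between their highest and lowest library. The 7 tested genes that varied by at least 1.5-fold were IRF9, IFI6, IFITM1, CXCL10, BST2, IFITM3 and IFI35. Over these genes as a group the libraries differed little, with NC replicate 3 slightly above the others. On the log2(FPKM + 1) scale, the median deviation of the 37 genes from their own means was -0.0054, -0.0031 and -0.014 in AS-tDR-007333 libraries, and -0.0044, -0.010 and 0.036 in NC libraries. Over all genes tested, these medians were -0.0071, -0.0044 and 0.0017 in AS-tDR-007333 libraries, and 0.016, 0.0027 and 7.3e-04 in NC libraries. NC replicate 3 was the highest library for 12 of the 37 genes and NC replicate 2 the lowest for 11. The counts of genes in this paragraph were not made over all genes tested, so they have no background.

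**Figure D4:**
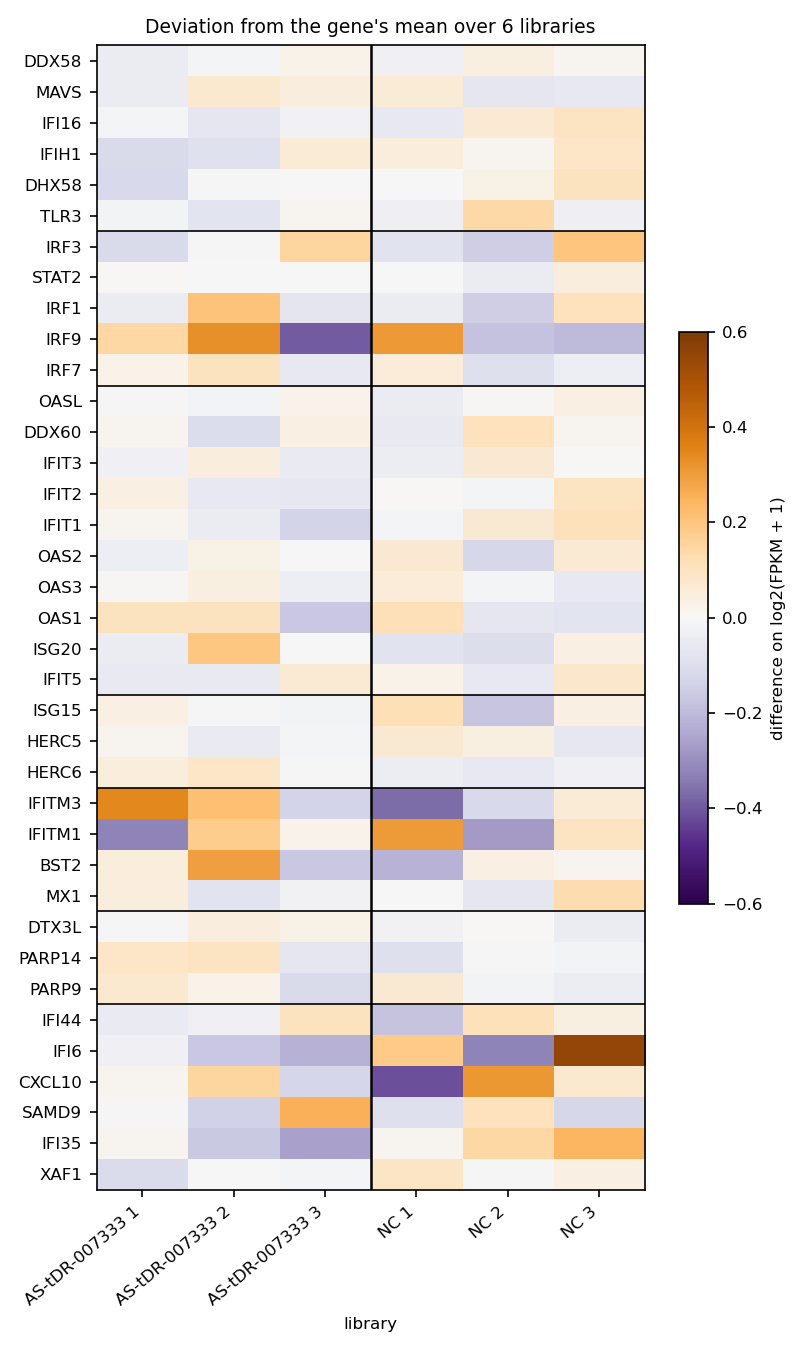
Difference of each library from the gene's own mean on log2(FPKM + 1), for the 37 tested genes (rows, by role) in the 3 AS-tDR-007333 libraries and the 3 NC libraries (columns). Strong colors stand in single rows such as IRF9, IFITM3, IFI6 and CXCL10, and no column is uniformly colored.

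Interferon genes themselves were listed in both groups. Of 10 interferon genes looked up, 5 were listed, and IFNA1, IFNA2, IFNK, IFNW1 and IFNG were not. IFNL1, an interferon lambda gene made by epithelial cells, was listed at 8.19, 6.66 and 8.42 FPKM in AS-tDR-007333 libraries, against 7.56, 6.26 and 6.83 FPKM in NC libraries. IFNB1, the gene of interferon beta, was listed at 1.85, 2.35 and 1.92 FPKM in AS-tDR-007333 libraries, against 2.23, 2.72 and 2.81 FPKM in NC libraries. The groups of both genes overlapped. IFNB1 was lower with the fragment at an unadjusted p under 0.05, with a log2 fold change of -0.24 (standard error 0.10, limma unadjusted p = 0.0475, adjusted p = 0.9996). IFNE, a constitutive interferon of epithelia, averaged 2.31 ± 0.218 FPKM in AS-tDR-007333 libraries and 2.45 ± 0.304 FPKM in NC libraries (SD, n = 3 each). IFNL2 and IFNL3, whose sequences are nearly alike and may share reads, had log2 fold changes of -0.09 and 0.07. At an unadjusted p under 0.05, 0 of the 5 were higher and 1 was lower, where the backgrounds for this and the wider lists that follow are 1.63% higher and 1.98% lower.

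The receptors and the JAK-STAT pathway showed no change past either threshold. Of 14 genes, 13 were tested, and at an unadjusted p under 0.05 limma gave 0 higher and 0 lower, with a median log2 fold change of 0.04. USP18 and JAK2 were among the genes of this list with the smallest p. USP18, which removes ISG15 and damps the receptor, was listed at 2.65, 2.86 and 2.85 FPKM in AS-tDR-007333 libraries, against 2.46, 2.26 and 2.64 FPKM in NC libraries. Its AS-tDR-007333 libraries lay just above the NC libraries, with a log2 fold change of 0.13 (limma unadjusted p = 0.0903). JAK2, a kinase of the interferon gamma receptor, had a log2 fold change of -0.08.

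Among 28 other sensors and relay genes, 23 were tested, and at an unadjusted p under 0.05 limma gave 1 higher and 1 lower, with a median log2 fold change of -0.01. TRAF3, a ubiquitin ligase between MAVS and the kinase TBK1, was listed at 5.55, 3.60 and 4.47 FPKM in AS-tDR-007333 libraries, against 3.27, 3.12 and 3.07 FPKM in NC libraries. Its AS-tDR-007333 libraries were spread, but all lay above NC, with a log2 fold change of 0.40 (standard error 0.13, limma unadjusted p = 0.0184, adjusted p = 0.9996). RNASEH2C, a subunit of the nuclease that removes RNA from DNA hybrids, was listed at 4.38, 4.17 and 3.75 FPKM in AS-tDR-007333 libraries, against 5.00, 4.91 and 4.57 FPKM in NC libraries. It had a log2 fold change of -0.19 (limma unadjusted p = 0.0312). ADAR, which edits double-stranded RNA, had a log2 fold change of 0.08.

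Among 50 other interferon-induced genes, 42 were tested, and at an unadjusted p under 0.05 limma gave 1 higher and 0 lower, with a median log2 fold change of -0.01. The higher gene was SHISA5 (ENSG00000164054, GRCh37 chr3:48509197-48542259), which encodes a membrane protein of the endoplasmic reticulum and is also a target of p53. SHISA5 was listed at 24.6, 22.7 and 23.2 FPKM in AS-tDR-007333 libraries, against 10.3, 14.4 and 12.7 FPKM in NC libraries. The groups were far apart, by 0.87 ± 0.11 on the log2 scale (standard error), with a 95% interval of 0.59 to 1.15 (limma unadjusted p = 1.98e-04, adjusted p = 0.168), which did not pass the adjusted threshold. CXCL11, a chemokine related to CXCL10, and PHF11, a zinc finger protein, had log2 fold changes of -0.17 and -0.15. Of 22 symbols of NF-kB target genes, 17 were tested, of which 0 had a limma unadjusted p under 0.05 in the higher direction and 1 in the lower, with a median of -0.02. NFKBIA, the inhibitor that NF-kB itself induces, was listed at 28.8, 29.2 and 25.1 FPKM in AS-tDR-007333 libraries, against 32.9, 30.5 and 31.3 FPKM in NC libraries. TNFAIP2 and the cytokine gene IL1B had log2 fold changes of -0.33 and 0.25, and their groups overlapped. Single libraries moved both values. TNFAIP2 was at -0.60 without NC replicate 3, at -0.16 without NC replicate 1 and at -0.025 in the Ballgown-style model. IL1B was at -0.0047 without AS-tDR-007333 replicate 2 and at 0.40 without AS-tDR-007333 replicate 1. At an adjusted p under 0.05, limma called 0 genes of these 5 wider lists.

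**Figure D5:**
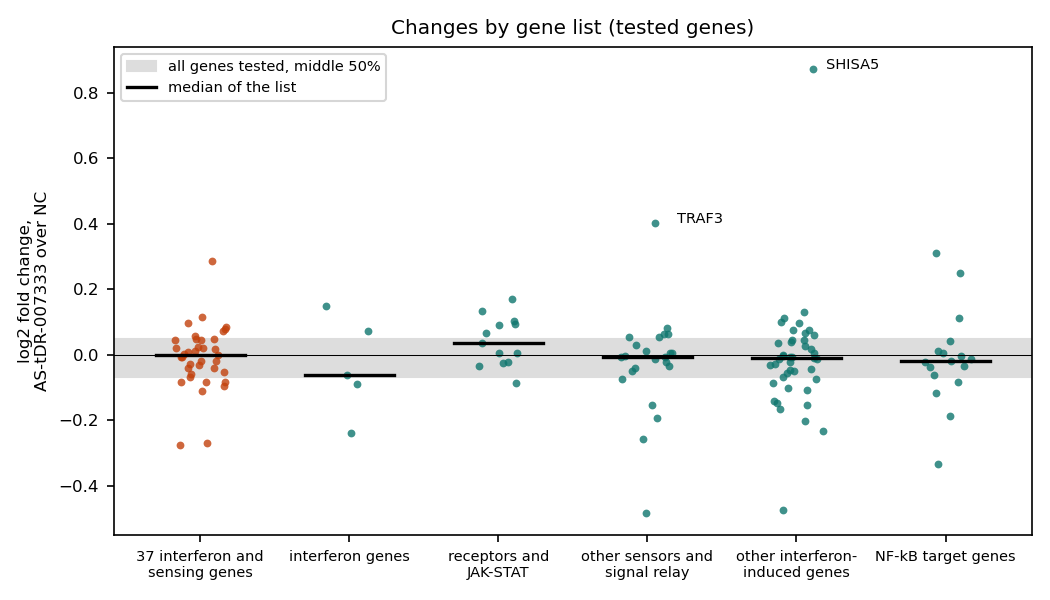
Log2 fold change of each tested gene, AS-tDR-007333 over NC on log2(FPKM + 1), for the 37 interferon and sensing genes and for 5 wider lists. Black bars are list medians, which lie between -0.06 and 0.04, and the gray band is the interquartile range of all genes tested. SHISA5 and TRAF3 are labelled.

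As to the cells, the epithelial genes EPCAM, KRT7, KRT8, KRT18 and KRT19 were all abundant, and 9 of 10 lung epithelial markers were listed. Of the 8 tested, 1 was higher (KRT18, log2 fold change 0.11) and 0 were lower at a limma unadjusted p under 0.05. NKX2-1 was not listed and NAPSA averaged 0.388 FPKM in AS-tDR-007333 libraries and 0.512 FPKM in NC libraries, so of these defining lung markers 1 was not listed and the other was low. The leukocyte markers PTPRC, CD14, LYZ and CD3E were not listed, and the 3 listed ones (CD68, LAPTM5 and ITGB2) summed to 31.6 to 35.8 FPKM in AS-tDR-007333 libraries and 29.8 to 33.5 FPKM in NC libraries. Of 8 markers of fibroblasts and endothelium, COL1A1 alone was listed, at 5.71 to 6.04 FPKM in AS-tDR-007333 libraries and 5.09 to 6.10 FPKM in NC libraries. Over all 11042 genes limma called 4 higher and 3 lower, and NC replicate 1 stood apart on the first principal component, which held 24.3% of the variance. Without NC replicate 1, limma still called 0 of the 36 interferon and sensing genes then tested.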

How the data were processed

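FPKM of 12154 protein-coding genes in 3 AS-tDR-007333 and 3 NC libraries was read from 1 table. The deposited FPKM values were made by the authors, who, by their methods, trimmed with StringTie, aligned to GRCh37 with HISAT2 and quantified with Ballgown. HISAT2 2.0.5 and featureCounts 1.5.0-p3 appear in the submitters' processing notes, and the annotation release was not given in the sources used here. Each gene of the table reached an average of 0.5 FPKM in AS-tDR-007333 or NC libraries, so an unlisted gene is below this level or was left out. Without counts the depth per library, and the counting error, are unknown.

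Samples were grouped by the genotype label, and columns were matched by title. Log2(FPKM + 1), which understates the change of low genes, was fitted with limma 3.58.1 in R 4.3.3, using moderated variances and a trend, for 11042 genes averaging 1 FPKM or more. Benjamini-Hochberg adjustment covered all of these genes. The procedure was tested on simulated data. Alternatives were a pseudocount of 0.1, removal of the filter, a stricter filter of 5 FPKM, median-of-ratios rescaling, an unmoderated model per gene in the style of Ballgown (with a term for library level), the replicate number as a block, and omission of each library. The genes, lists and tests were chosen with earlier results of these data known. All 41 genes are accounted for. Library values are given for genes with an unadjusted p under 0.05, without overlap, below the filter, among the 8 most abundant, or among sensors and factors, and up to 3 genes of smallest p were named from each wider list. Some genes that this rule or the marker lists would name are not reported here. Other values are given for context and were chosen after they were seen. Overlaps came from the deposited coordinates. Oligo sequences came from the study's supplement and were folded with RNAfold 2.7.2. RefSeq promoter windows were placed in GRCh37 by exact match. Figures were drawn with matplotlib 3.10.9.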

Additional observations from a re-analysis of the deposited data

How the results depend on the processing

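At an adjusted p under 0.05, 0 of the interferon and sensing genes were called under each of the 12 alternatives (limma, or the Ballgown-style model), and the lowest adjusted p of any of them in any setting was 0.50, for IFI35 and IFIT1 in the Ballgown-style model. At an unadjusted p under 0.05, 1 of 37 genes (IFI35) became 0 of 24 with the stricter filter of 5 FPKM, where IFI35 was not tested. Over all genes, 222 of 6437 passed with that filter. The count was 0 of 37 with the replicate block, against 335 of 11042 over all genes. In the Ballgown-style model it was 3 of 37 (IFI35, IFIT1 and IFI16, all lower), against 934 of 11042 over all genes. Without any single library the count was 0 to 1, and 0 when replicate 2 of AS-tDR-007333 or replicate 3 of NC was omitted. IFITM3 (higher) without AS-tDR-007333 replicate 3 and IFI6 (lower) without NC replicate 2 took the place of IFI35. Over all genes, 354 (without AS-tDR-007333 replicate 3) to 749 (without NC replicate 1) passed. Upper bounds lay under 1.5-fold for 23 of 24 genes under that filter, which tested fewer genes, for 32 of 37 in the Ballgown-style model, for 34 of 37 with a pseudocount of 0.1 FPKM, and for 34 to 35 genes without any single library. The 7 genes called among all genes became 0 in the Ballgown-style model, with 934 at an unadjusted p under 0.05, 1 with the replicate block, and 1 (without NC replicate 3) to 18 (without NC replicate 1) without any single library, with 14 without NC replicate 2 and 11 without AS-tDR-007333 replicate 2. The median of the interferon and sensing genes stayed between -0.02 and 0.01 in all settings. SHISA5 was not called in any setting, with an adjusted p of 0.0569 (without NC replicate 1) to 0.79 (replicate block). The causes of these shifts were not tested. Over all genes tested, deviations of same-numbered libraries from their group means were close to uncorrelated (-0.0134, 0.0106 and -0.0054). These values do not show whether same-numbered libraries were prepared together, and single genes such as AC116366.3 had a shared deviation. Depth is unknown, so the counting error of genes near 1 FPKM could not be set apart from the spread between libraries.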
